A study of Mus musculus with 12 samples.

Results

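Gene expression was compared between abdominal fat pads of female mice that lacked p47phox and of wild type mice, both fed casein. The comparison is null minus wild type over 6 arrays, 3 pools of each genotype, out of the 12 arrays of the study, and it covers 18194 genes, each the mean of its probe sets that carry 1 gene symbol. The labels give the wild type group as C57BL/6 and the null group as P47KO on a C57BL/6 background, and name no allele or construct for the knockout. Both groups began casein at postnatal day 28 and were killed after 13 weeks. The other 6 arrays hold pools of both genotypes on a high fat diet for the same time. The number of mice in a pool is not given, so the errors and p-values below measure the spread between pools.

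Ncf1 encodes p47phox, the cytosolic organizer that is phosphorylated when a phagocyte is stimulated and then brings the NADPH oxidase together at the membrane. The assembled enzyme passes electrons from NADPH to oxygen and makes superoxide, which macrophages and neutrophils use against microbes and which also acts in signalling. In fat, resident macrophages carry this phagocyte oxidase, and adipocytes carry a related catalytic subunit, Nox4, that needs no p47phox.

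Values are RMA values on the log2 scale, centred by the authors on the median of the 12 arrays for each probe set. They show differences between pools and no expression level, so the labelled tissue could not be checked by the level of fat markers. Differences are given with the standard error (SE) of a limma fit to all 12 arrays. In bulk tissue, fewer cells of a type and less RNA per cell cannot be told apart.

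Markers of other tissues differed between the 6 casein pools before any genotype comparison. The median of 21 ovary cell markers was 0.15 in wild type pool 1, -1.09 in wild type pool 2 and -0.87 in wild type pool 3, against 0.20, 0.09 and 0.18 in null pools 1 to 3. Wild type pool 1 therefore lay with the null pools and apart from the other wild type pools. Wild type pool 3 had the highest medians of the 6 for 16 liver markers (4.65), 11 adrenal gland markers (2.38) and 25 lymphocyte markers (0.56). Skeletal muscle markers were highest in wild type pool 1 (2.35) and null pool 1 (1.66). Results that change without one of these pools are given with and without it.

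Ncf1 itself read lower in every null pool than in any wild type pool. Its mean over 3 probe sets was 0.07, 0.37 and 0.85 in wild type pools 1 to 3 and -0.19, -0.23 and -0.23 in null pools 1 to 3. The null pools lay within a narrow range and the wild type pools were spread out. The difference was -0.65 ± 0.16 (SE, 3 pools a group), with a limma adjusted p of 0.521. Leaving out 1 casein pool moved the difference between -0.83 (without wild type pool 1) and -0.44 (without wild type pool 3). On the high fat diet, whose pools are other arrays, it was -0.76 and passed the test (limma adjusted p = 0.0312).

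The probe sets of Ncf1 did not behave alike on casein. The one with the widest gap read 0.33, 0.90 and 1.71 in wild type pools and -0.39, -0.45 and -0.54 in null pools. The next read 0.16, 0.24 and 0.83 against -0.17, -0.27 and -0.16. In both the genotypes did not overlap, whereas the third overlapped and differed by 0.11. Which part of the transcript each probe set reads, and whether it lies in a deleted stretch, was not analysed here.

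**Figure D1:**
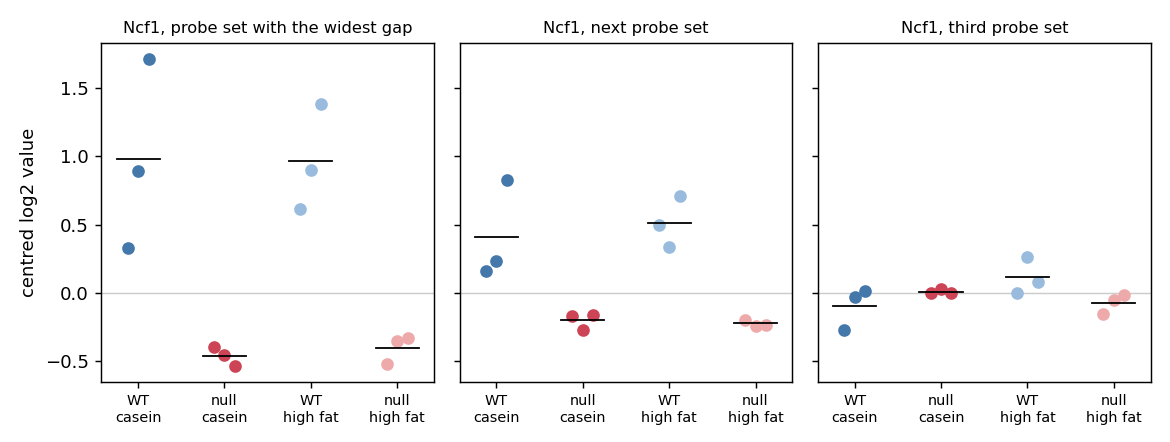
Centred log2 value of the 3 Ncf1 probe sets (1 panel each) in the 12 pools, by genotype (WT, wild type) and diet on the x axis. Points are pools and black lines are group means. On casein the genotypes are apart in the first 2 panels, with differences of -1.44 and -0.61, and overlap in the third.

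The other 11 measured genes of the NADPH oxidase list did not separate the genotypes on casein. Cybb, the membrane catalytic subunit of the phagocyte enzyme, read -0.24, 0.06 and 0.51 in wild type pools and -0.03, -0.04 and -0.31 in null pools. Its difference of -0.24 ± 0.18 lay within the spread between pools, and without wild type pool 3 it was -0.03. Ncf4, the p40phox subunit, differed by -0.19 ± 0.25, Cyba, the p22phox partner of the catalytic subunit, by 0.08 ± 0.21, and Cybc1, a chaperone of that pair, by -0.04 ± 0.07. The GTPases Rac1 and Rac2, which switch the complex on, differed by -0.07 ± 0.06 and -0.29 ± 0.18, and Rac2 by -0.03 without wild type pool 3.

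The oxidases that work without p47phox gave no separated pools either. Nox4 differed by 0.30 ± 0.22, and null pool 3 (0.80) was its highest pool, without which the difference was 0.0071. Noxo1, the homologue of p47phox that serves Nox1 in epithelia, differed by 0.10 ± 0.18. Duox1 differed by -0.15 ± 0.16 and its maturation factors Duoxa1 and Duoxa2 by -0.16 ± 0.17 and -0.10 ± 0.11. Over the 12 measured genes of the list the median difference was -0.12, against -0.01 over all genes. In null pools 9 of 12 were lower, as were 9812 of all 18194 genes. An unadjusted p under 0.05 was reached by 1 of 12, Ncf1, where 4.5% of all genes were lower. Without wild type pool 1 that count was 5, all lower, where 8.68% of all genes were.

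No gene passed the test between genotypes on casein. limma called 0 of 18194 genes (0.0%) at an adjusted p under 0.05, and the smallest adjusted p was 0.184. An unadjusted p under 0.05 was reached by 1478 genes (8.12%), of which 659 (3.62%) were higher and 819 (4.5%) lower in null pools. When 1 casein pool was left out, those shares ran from 2.42% to 6.78% higher and from 2.86% to 8.68% lower. Null and wild type pools did not overlap in 2178 genes (12%), 983 higher (5.4%) and 1195 lower (6.57%). With 3 pools against 3, an exact permutation test of a single gene cannot go below a two-sided p of 0.1.

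The count of called genes turned on wild type pool 1. Without that pool 46 genes passed, 36 higher and 10 lower. Of these 46, 34 also passed on the high fat diet, where 5.92% of all genes did. The ovary markers Inha and Foxl2 were among the 36. Wild type pools 1 to 3 read 0.73, -5.68 and -5.04 for Inha and 0.16, -1.11 and -1.07 for Foxl2. Whether ovary tissue in the pools accounts for these calls was not tested. Over all 6 casein pools the genotypes did not overlap in 21 of the 46. Without wild type pools 1 and 3 together 45 genes passed, 19 of them shared with the 46. Leaving out wild type pool 2 gave 2 genes, Arg1 (-5.04), arginase of the liver and of some macrophages, and Hgfac (-1.96), a liver-made protease, both named after their values were seen. Leaving out wild type pool 3 or any null pool gave 0.

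The 9 genes that share the smallest adjusted p of 0.184 were Ide, Irak1bp1, Hirip3, Fgfbp3 and Mgst2, higher in null pools, and Nol3, Ppp1r3d, Slc35g1 and Snx7, lower. Each had all 3 null pools on one side of all 3 wild type pools, which a choice by smallest p favours but does not require. Their differences run from 0.46 to 0.93 in size. On the high fat diet all 9 had the same direction. There 8 of them had an unadjusted p under 0.05, as 24.9% of all genes do, and pools that did not overlap, as 32.2% of all genes do. The means on the 2 diets come from different arrays, but each gene's spread is estimated once from all 12, so the p-values on the 2 diets share it and the 9 genes were chosen partly by it. The exception was Irak1bp1 (0.08 on the high fat diet).

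Ide encodes the insulin-degrading enzyme, a metalloprotease that cleaves insulin and amyloid peptides. It read -0.16, -0.52 and -0.34 in wild type pools and 0.45, 0.28 and 0.24 in null pools. Every null pool was above every wild type pool, by a difference of 0.66 ± 0.10 or 1.58-fold (limma adjusted p = 0.184). In 4 of its 5 probe sets the genotypes did not overlap, and the probe sets' differences ran from 0.15 to 1.12. Without wild type pool 1 the difference was 0.75 (adjusted p = 0.0217), and over all alternatives the adjusted p ran from 0.0217 to 0.833.

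Fgfbp3, a secreted carrier of fibroblast growth factors, lies 5 genes from Ide on chromosome 19. It read -0.33, -0.60 and -0.56 in wild type pools and 0.42, 0.36 and 0.33 in null pools, a difference of 0.87 ± 0.14 (limma adjusted p = 0.184). The null pools lay close together and far above the wild type pools. Slc35g1, a membrane transporter on the same chromosome, was lower in null pools by 0.62 ± 0.10 on the log2 scale. Of the 20 nearest measured neighbours of Ide, 5 had an unadjusted p under 0.05, against 8.12% of all genes, and 4 had pools that did not overlap, against 12%. Fgfbp3 was among both, and so was the predicted gene next to Ide, with a difference of 1.17. Predicted genes are not named here. The median difference of the 20 was -0.07. For Nol3 the same counts were 5 and 6 of 20, with a median of 0.08. Of the 20 nearest measured neighbours of Ncf1 on chromosome 5, 0 had an unadjusted p under 0.05 and 1 had pools that did not overlap.

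Nol3, a repressor of apoptosis with a caspase recruitment domain, had the smallest p of all genes. It read 0.22, 0.86 and 0.40 in wild type pools and -0.38, -0.49 and -0.44 in null pools. All null pools were lower, by 0.93 ± 0.14 on the log2 scale or 1.91-fold, in both of its probe sets. Ppp1r3d, which targets protein phosphatase 1 to glycogen, read 0.40, 0.68 and 0.10 in wild type pools and -0.37, -0.55 and -0.51 in null pools. Snx7, a sorting nexin of the endosome, read 0.24, 0.40 and 0.35 against -0.26, -0.33 and -0.24. Neither overlapped, with differences of -0.87 ± 0.14 and -0.61 ± 0.10.

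The remaining genes of smallest p cover an enzyme and receptor of lipid mediators, an interferon-induced GTPase and matrix proteins. Mgst2, a microsomal glutathione transferase that also makes leukotriene C4, differed by 0.51 ± 0.08. Ptgfr, the receptor of prostaglandin F2α, read -0.38, -0.60 and -0.88 in wild type pools and 0.45, 0.28 and 0.59 in null pools. Its difference of 1.06 ± 0.20 is the largest among the 10 higher genes of smallest p, a choice that leaves out predicted genes. Prxl2b, an enzyme that makes prostaglandin F2α and its amide, was lower in all null pools (-0.74 ± 0.14).

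Adamts5, a protease that cuts aggrecan and versican, read 0.19, 0.64 and 0.28 in wild type pools and -0.25, -0.31 and -0.35 in null pools. Its difference was -0.67 ± 0.11, and 3 of its 4 probe sets did not overlap. Hirip3 (0.46 ± 0.07), a histone chaperone, and Macroh2a2 (0.45 ± 0.09), a histone variant, were higher in all null pools. So were Irak1bp1 (0.53 ± 0.08), a binding partner of the kinase IRAK1, Lgals3bp (0.61 ± 0.12), a secreted glycoprotein that binds galectin-3, and Fgf15 (0.41 ± 0.07), known as the gut hormone that restrains bile acid synthesis. Ighm, the heavy chain of immunoglobulin M (-0.49 ± 0.09), Mtfmt, which formylates the mitochondrial initiator tRNA (-0.38 ± 0.07), Tmem45b (-0.88 ± 0.16) and Tmem254a (-0.66 ± 0.12) were lower in all null pools. The limma adjusted p of these 20 genes ran from 0.184 to 0.291.

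**Figure D2:**
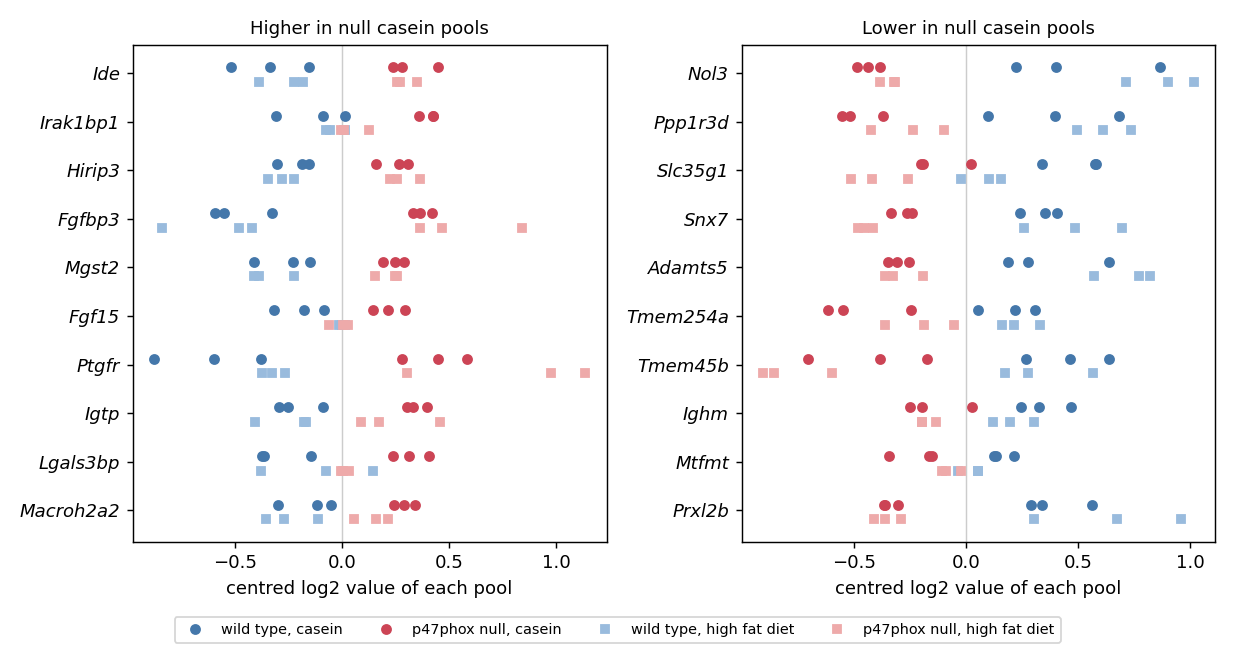
Centred log2 values of each pool (x axis) for the 10 genes of smallest p that were higher (left) and the 10 that were lower (right) in null casein pools. Circles are casein pools and squares are high fat diet pools. The casein genotypes do not overlap, as the choice of genes requires, and on the high fat diet 7 of the 10 on the left and 9 of the 10 on the right are separated the same way. Over all genes 14.9% are separated as higher and 17.3% as lower on that diet.

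Among genes whose casein pools did not overlap, the widest positive differences belonged to other genes, and most of these varied within the wild type group. Prss35, a secreted serine protease known from the ovary, read -0.01, -3.50 and -1.31 in wild type pools and 2.26, 0.18 and 0.01 in null pools, a difference of 2.42 ± 0.78. Mmp11, the matrix protease stromelysin-3, read -0.10, -2.14 and -2.38 against 0.35, 0.21 and 0.10. In both, wild type pool 1 lay just under the null pools. Among the 10 genes with the widest positive difference of this kind, wild type pool 1 was the wild type pool nearest to the null pools in all 10, the order that the ovary cell markers also show. Given the ovary marker median as a covariate, the differences of all 10 stayed positive and were smaller, from 0.07 to 1.04. Prss35 then differed by 1.04, Timp1 by 0.88, Mmp11 by 0.82, Pgbd5 by 0.70, Plekhg4 and Sfrp4 by 0.67 each, Tmem86a by 0.41, Irx3 by 0.29, Cst12 by 0.12 and Birc5 by 0.07. Prss35 is itself 1 of the 21 ovary markers. Their median also differed between genotypes, so a fit with it takes out part of any genotype difference. Such a fit cannot tell tissue from genotype, here or below.

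Timp1, the secreted inhibitor of matrix metalloproteases, read 0.39, -1.34 and -0.52 in wild type pools and 2.36, 0.56 and 1.90 in null pools. Its difference of 2.10 ± 0.60, or 4.28-fold, did not pass (limma adjusted p = 0.542). Sfrp4, a secreted antagonist of Wnt signals, differed by 1.64 ± 0.51, Irx3, a homeobox factor, by 1.25 ± 0.45, and Birc5, the mitotic survival protein survivin, by 1.26 ± 0.48. Tmem86a (1.75 ± 0.51), an enzyme that cleaves lysoplasmalogens, Pgbd5 (1.55 ± 0.37), a gene derived from a transposase, Cst12 (1.36 ± 0.48), a cystatin, and Plekhg4 (1.28 ± 0.49) complete the 10. Genes with a difference over 2-fold and pools that did not overlap numbered 19 higher (0.104%) and 13 lower (0.0715%).

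Most genes of heat-producing fat were lower in null pools, with wide spread. Ucp1, the mitochondrial uncoupling protein that lets brown and beige adipocytes make heat, read 1.77, 3.72 and 2.95 in wild type pools and -4.89, 1.41 and 0.86 in null pools. All null pools lay under all wild type pools, and null pool 1 was far below the rest. The difference was -3.69 ± 1.51, or 12.9-fold (limma adjusted p = 0.592), and without null pool 1 it was -1.68. Otop1, a proton channel of brown fat, read 0.43, 2.27 and 1.54 against -2.16, -0.01 and 0.01, and Elovl3, the fatty acid elongase induced by cold, 1.0, 3.06 and 2.04 against -1.25, 0.80 and 0.19. Both differed by -2.13, with SE of 0.67 and 0.72.

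Of 20 measured brown and beige adipocyte genes, 6 had an unadjusted p under 0.05 and all 6 were lower, where 4.5% of all genes were, among them Ppargc1b (-0.69 ± 0.27), a coactivator of mitochondrial genes. The pools did not overlap in 4 of the 20, against 6.57% of all genes in that direction. The median difference was -0.42, against -0.01 over all genes. Of the 20 genes 16 were lower, as were 9812 of all 18194, and 4 were higher, by up to 0.20. The list's median was 0.06, 0.40 and 0.40 in wild type pools 1 to 3 and -0.29, 0.06 and 0.20 in null pools 1 to 3, so wild type pool 1 lay among the null pools. The count of 6 was 1 without null pool 1 (4.66% of all genes lower) and 1 without wild type pool 2 (2.91%). It was 3 without wild type pool 3 (3.84%) and 9 without wild type pool 1 (8.68%). With the ovary marker median as a covariate the count lower was 1, where 2.15% of all genes were, 1 gene was higher, and the median was -0.19. Ucp1 then differed by -2.86 and Ppargc1b by -0.26. Acot11 (-1.53 ± 0.46), a thioesterase of brown fat that is not in the list, also separated the genotypes.

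Genes of the respiratory chain leaned the same way by small amounts. Of 28 measured subunits 27 were lower in null pools, as were 9812 of all 18194 genes, with a median difference of -0.20. An unadjusted p under 0.05 was reached by 2, both lower, where 4.5% of all genes were. These were Uqcrfs1, the iron-sulfur protein of complex III (-0.42 ± 0.17), and Sdhc, the membrane anchor of complex II (-0.25 ± 0.10). Of 22 enzymes of fatty acid oxidation 19 were lower, with a median of -0.25, and 2, Acadvl (-0.72 ± 0.29) and Acaa2 (-0.66 ± 0.29), had an unadjusted p under 0.05. The pools overlapped in all 22. In both lists wild type pool 1 was with the null pools (respiratory chain -0.01, 0.39 and 0.18 in wild type pools 1 to 3 and -0.05, 0.01 and 0.03 in null pools). Without it the counts lower were 14 of 28 and 13 of 22, where 8.68% of all genes were lower. Without null pool 1 or 3 the respiratory chain count was 0, and without wild type pool 2, wild type pool 3 or null pool 2 the fatty acid oxidation count was 0. Both counts were 0 with the ovary marker median as a covariate, and the medians were 0.03 and 0.09. Acadvl then differed by -0.10, Acaa2 by -0.18, Uqcrfs1 by -0.03 and Sdhc by -0.08.

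Adipocyte genes tied to fat pad growth were lower in null pools 2 and 3. The median of the adipose expansion list was 0.02, 0.19 and -0.03 in wild type pools 1 to 3 and 0.05, -0.29 and -0.38 in null pools 1 to 3. Null pool 1 thus lay above wild type pools 1 and 3. Lep encodes leptin, the hormone that adipocytes secrete in proportion to fat mass. It read 0.13, 0.60 and 0.32 in wild type pools and -0.13, -0.74 and -0.71 in null pools, a difference of -0.88 ± 0.28 (limma adjusted p = 0.549). Mest, an imprinted gene that is induced as a fat pad expands, read 0.04, 0.22 and 0.43 against -0.04, -1.33 and -1.47. Npr3, the clearance receptor of natriuretic peptides, read 0.05, 0.49 and 0.21 against -0.02, -1.34 and -1.48. In all 3 genes null pool 1 lay just under the lowest wild type pool and null pools 2 and 3 lay far below. In 1 of the 3 Npr3 probe sets the genotypes overlapped, with null pool 1 at 0.08 and wild type pool 1 at -0.08.

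Mest differed by -1.17 ± 0.46 and Npr3 by -1.20 ± 0.36 on casein, and both passed the test on the high fat diet (-2.76 and -2.39, limma adjusted p = 0.021 and 0.0165), as did Lep (-1.64, adjusted p = 0.0225). The interaction, the casein difference minus the high fat diet difference, was 1.58 ± 0.66 for Mest and 1.20 ± 0.51 for Npr3 and did not pass (adjusted p = 0.789 for each). Of 16 measured adipose expansion genes 14 were lower on casein, as were 9812 of all 18194 genes, with a median of -0.23. An unadjusted p under 0.05 was reached by 4, all lower, where 4.5% of all genes were. The fourth was Fgf13 (-0.58 ± 0.23), a member of the fibroblast growth factor family that stays inside the cell. Leaving out 1 pool moved the count from 2 (without wild type pool 2, null pool 2 or null pool 3) to 6 (without null pool 1). Over all genes 2.91%, 2.86%, 3.68% and 4.66% were lower in those fits, in that order. With the ovary marker median as a covariate 0 were lower and 1 was higher at that threshold, with a median of -0.14, while Lep differed by -0.75, Mest by -1.16 and Npr3 by -0.93.

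Markers of the mature adipocyte overlapped for the most part. Adipoq, the adipocyte hormone adiponectin, read -0.02, 0.09 and -0.20 in wild type pools and 0.27, -0.06 and -0.21 in null pools, a difference of 0.04 ± 0.18. Of 22 measured markers 4 had an unadjusted p under 0.05, all lower (4.5% of all genes): Lep, Gpd1, Cebpb and Slc2a4. Gpd1, which makes glycerol 3-phosphate for triglyceride, read 0.14, 0.70 and 0.63 against -0.50, -0.02 and 0.04 (-0.65 ± 0.18). Slc2a4, the insulin-regulated glucose transporter, differed by -0.37 ± 0.16, and the differentiation factor Cebpb by -0.31 ± 0.13. The median of the list was -0.14, and without wild type pool 2 or 3 the count was 2. With the ovary marker median as a covariate the count lower was 0 and the median 0.03, with Gpd1 at -0.38, Cebpb at -0.13 and Slc2a4 turned to 0.01.

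Enzymes of lipid synthesis and glucose use differed in both directions. Fasn, fatty acid synthase, differed by -0.07 ± 0.22. Scd1, the stearoyl-CoA desaturase, was higher in every null pool (-0.16 in each wild type pool against -0.05, 0.23 and 0.35), and Lpin1, a phosphatidate phosphatase, was lower (-0.28 ± 0.10). The hexokinase Hk2 read 0.45, 0.88 and 0.39 in wild type pools and -0.38, 0.04 and -0.04 in null pools (-0.70 ± 0.17). Mvk, of the mevalonate pathway, and Stard4, a carrier of cholesterol, each differed by -0.32 ± 0.11. Of 20 lipogenesis enzymes 2 had an unadjusted p under 0.05 (1 higher, 1 lower), and of 19 cholesterol genes 2, both lower. Over all genes 3.62% were higher and 4.5% lower at that threshold. Without wild type pool 1 the lipogenesis enzymes lower at that threshold were 5, where 8.68% of all genes were, and without wild type pool 2 or null pool 1 they were 0, while the cholesterol genes were then 1. The glycogen-targeting subunit Ppp1r3b differed by -1.18 ± 0.44.

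Interferon-stimulated genes were higher in null pools by small amounts that were steady between pools. This family is induced through the interferon receptors and includes GTPases that guard the cell against microbes inside it. Igtp, one of these GTPases, read -0.25, -0.30 and -0.09 in wild type pools and 0.30, 0.40 and 0.33 in null pools. Every null pool was higher, by 0.56 ± 0.11 (limma adjusted p = 0.291), and leaving out any 1 pool kept the difference between 0.51 and 0.62. Its relatives Iigp1 (0.70 ± 0.15) and Irgm2 (0.31 ± 0.10) and the guanylate-binding protein Gbp2 (0.30 ± 0.09) did not overlap between genotypes either. Probe sets of such related GTPases may share signal.

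Of 31 measured interferon-stimulated genes 26 were higher, as were 8382 of all 18194 genes, with a median of 0.18. An unadjusted p under 0.05 was reached by 8, all higher, where 3.62% of all genes were. Pools did not overlap in 9 of 31, against 5.4% of all genes in that direction. The list's median was -0.09, -0.13 and -0.09 in wild type pools 1 to 3 and 0.00, 0.08 and 0.09 in null pools. Here wild type pool 1 lay with the other wild type pools, unlike its ovary marker median. Without 1 pool the list's median difference stayed between 0.16 and 0.22 and the count higher between 6 and 11. With the ovary marker median as a covariate the median was 0.13 and 4 of 31 had an unadjusted p under 0.05, where 1.87% of all genes were higher.

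The promoters of Igtp, Irgm2 and Gbp2 are shown because these named members hold a motif that interferon-responsive promoters are known for. They were picked for the motif, and Iigp1, with a larger difference, is not shown. They are the 250 bases before the annotated gene start in RefSeq (GRCm38.p6), at chr11:58199306-58199555, chr11:58214727-58214976 and chr3:142620413-142620662, all on the plus strand. Capitals mark the letters GAAANNGAAA, the core of the interferon-stimulated response element, on either strand.
Igtp: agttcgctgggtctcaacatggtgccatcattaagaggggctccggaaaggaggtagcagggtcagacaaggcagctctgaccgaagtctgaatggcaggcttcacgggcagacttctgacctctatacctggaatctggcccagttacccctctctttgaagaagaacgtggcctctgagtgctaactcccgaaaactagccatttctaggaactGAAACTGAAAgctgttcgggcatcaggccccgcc
Irgm2: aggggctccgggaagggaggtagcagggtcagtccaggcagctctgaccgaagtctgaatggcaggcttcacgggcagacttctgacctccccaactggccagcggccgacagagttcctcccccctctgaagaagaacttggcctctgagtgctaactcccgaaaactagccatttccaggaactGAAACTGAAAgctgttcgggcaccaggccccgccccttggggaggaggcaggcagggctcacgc
Gbp2: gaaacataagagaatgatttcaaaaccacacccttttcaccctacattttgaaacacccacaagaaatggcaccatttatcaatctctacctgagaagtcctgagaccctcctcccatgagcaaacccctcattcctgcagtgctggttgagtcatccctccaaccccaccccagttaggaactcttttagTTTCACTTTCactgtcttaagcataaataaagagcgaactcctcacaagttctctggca
The match begins 34 bases before the gene start in Igtp, 64 in Irgm2 and 59 in Gbp2, where it is on the opposite strand. Of the 31 genes 21 have a promoter in the table, and 12 of the 21 (57.1%) hold the letters, against 453 of 14453 tested genes with a promoter (3.13%). Among the 8 genes with an unadjusted p under 0.05, 3 of the 6 with a promoter hold it. A match describes the sequence and says nothing about binding.

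Neighbouring immune lists showed little. Cxcl10, a chemokine induced by interferon, read -0.49, -0.35 and -0.43 in wild type pools and 0.21, 0.18 and 0.12 in null pools (0.59 ± 0.21). Every null pool was above every wild type pool, and the same held for Il18 (0.28 ± 0.11), a cytokine matured by the inflammasome. These 2 of 27 chemokines and cytokines had an unadjusted p under 0.05, where 3.62% of all genes were higher, and the list's median was 0.00. The count was 4 without wild type pool 1 (6.78% of all genes) and 1 without wild type pool 2. Of 15 antigen presentation genes H2-K1 (0.33 ± 0.12), a class I heavy chain, and Tapbp (0.21 ± 0.09), which loads peptide on class I, were higher, and H2-DMa (-0.36 ± 0.13), which loads class II, was lower. All 3 lie on chromosome 17. Without wild type pool 1 the 2 class I genes no longer had an unadjusted p under 0.05 and 3 genes of the list were lower at it (8.68% of all genes).

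Macrophage markers did not differ as a group. Of 28 measured, 12 were higher and 16 lower, the median was -0.02, and 1 had an unadjusted p under 0.05, where 3.62% of all genes were higher. That was C1qb, a chain of complement C1q, at -0.38, -0.21 and -0.42 in wild type pools and 0.30, -0.05 and 0.04 in null pools (0.43 ± 0.14). Adgre1, a surface receptor that marks mouse macrophages, differed by 0.17 ± 0.18, and Ccl2, the chemokine that draws monocytes, by 0.11 ± 0.30. Rnase2a, a ribonuclease of eosinophils, read 0.10, 1.28 and 1.11 in wild type pools and -0.10, -0.59 and -0.58 in null pools (-1.26 ± 0.38). It was the 1 of 20 neutrophil, eosinophil and mast cell markers with an unadjusted p under 0.05, where 4.5% of all genes were lower. The other eosinophil markers of that list differed by -0.11 to -0.19. Lymphocyte markers had a median difference of -0.20 with wild type pool 3 and 0.05 without it. Without wild type pool 1, 10 of 25 lymphocyte markers and 5 of the 20 granulocyte markers were lower at an unadjusted p under 0.05, where 8.68% of all genes were.

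Genes of the cell cycle had higher values in null pools, and here wild type pool 1 stood with the null pools. Of 36 measured, 33 were higher, as were 8382 of all 18194 genes, with a median of 0.36. An unadjusted p under 0.05 was reached by 15, all higher (3.62% of all genes). Mcm7, of the helicase that opens replication origins, read -0.02, -0.34 and -0.26 in wild type pools and 0.15, 0.37 and 0.46 in null pools (0.53 ± 0.17). Top2a, the topoisomerase of mitotic chromosomes, read 0.05, -0.46 and -0.37 against 0.06, 0.24 and 0.25 (0.44 ± 0.14). Plk1, a mitotic kinase, differed by 0.56 ± 0.20 and Tpx2, a spindle factor, by 0.24 ± 0.09.

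The list's median was 0.11, -0.26 and -0.19 in wild type pools 1 to 3 and 0.07, 0.25 and 0.35 in null pools 1 to 3. Ovary cell markers had the same low wild type pools 2 and 3 (-1.09 and -0.87). With their median as a covariate, 0 of 36 cell cycle genes had an unadjusted p under 0.05 and the list's median difference was 0.03. The count of 15 was 3 without wild type pool 3 (2.42% of all genes higher) or null pool 3 (2.85%). It was 4 without wild type pool 2 (2.73%), 7 without null pool 2 (2.7%) and 21 without wild type pool 1 (6.78%).

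The promoters of Top2a and Plk1 are shown for the CCAAT box, a motif that many genes of the G2 and M phases carry. They are the 250 bases before the gene start at chr11:99024190-99024439 on the minus strand and chr7:122159185-122159434 on the plus strand (GRCm38.p6, RefSeq). Capitals mark CCAAT on either strand.
Top2a: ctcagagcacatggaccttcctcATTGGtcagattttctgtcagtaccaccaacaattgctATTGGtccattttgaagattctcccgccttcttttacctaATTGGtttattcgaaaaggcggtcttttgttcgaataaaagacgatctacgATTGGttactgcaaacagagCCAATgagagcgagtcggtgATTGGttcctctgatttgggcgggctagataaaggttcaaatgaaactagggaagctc
Plk1: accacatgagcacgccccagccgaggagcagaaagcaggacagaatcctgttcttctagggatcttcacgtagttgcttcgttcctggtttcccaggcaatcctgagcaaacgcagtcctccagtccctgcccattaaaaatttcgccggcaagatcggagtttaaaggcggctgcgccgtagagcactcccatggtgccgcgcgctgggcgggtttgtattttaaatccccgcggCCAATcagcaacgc
Top2a holds 6 matches and Plk1 holds 1, which begins 14 bases before its start. Of 29 cell cycle genes with a promoter 22 (75.9%) hold CCAAT, against 39.4% of all genes with one. Among the 15 genes with an unadjusted p under 0.05, 11 of the 13 with a promoter hold it.

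The unfolded protein and heat shock list followed the same pools. Of 27 measured genes 6 had an unadjusted p under 0.05, all higher (3.62% of all genes), with a median of 0.18. The pools did not overlap in 7 genes that were higher and 3 that were lower, against 5.4% and 6.57% of all genes. Calr, the calcium-binding chaperone of the endoplasmic reticulum, read 0.02, -0.34 and -0.17 in wild type pools and 0.13, 0.28 and 0.46 in null pools (0.45 ± 0.16). Creld2 (0.56 ± 0.21), Hsp90b1 (0.38 ± 0.15) and the disulfide isomerase Pdia4 (0.25 ± 0.09), all of the same compartment, were also higher. Wild type pool 1 was the highest wild type pool in all 4. With the ovary marker median as a covariate the count was 0 (1.87% of all genes higher) and the median -0.01. The count was 0 without wild type pool 2 (2.73%), 2 without null pool 3 (2.85%) and 3 without wild type pool 3 (2.42%).

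**Figure D3:**
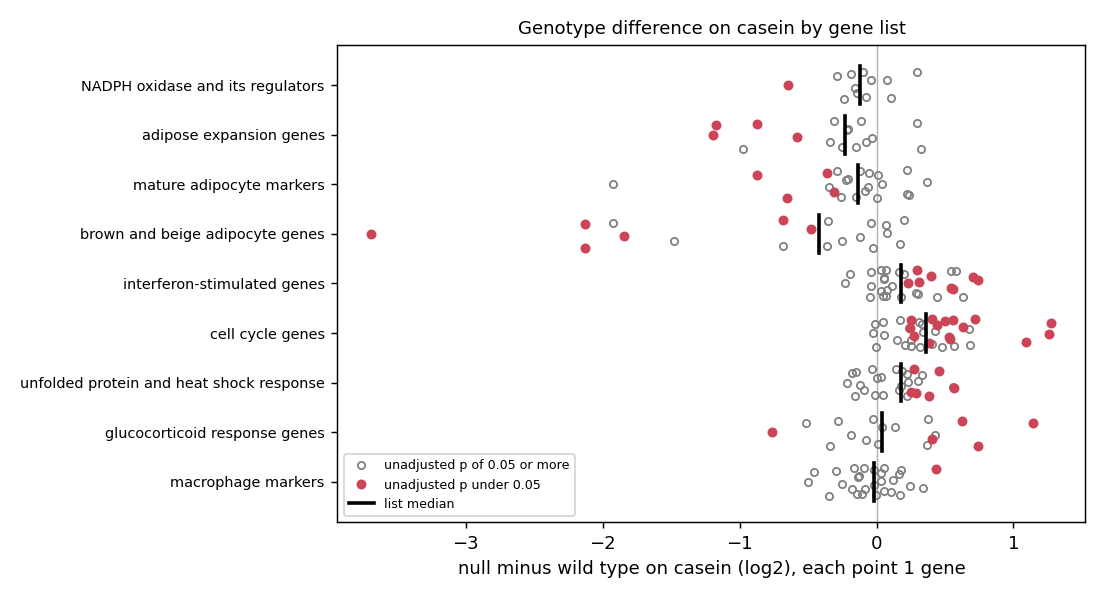
Genotype difference on casein (log2, x axis) of every measured member of 9 gene lists. Filled points have an unadjusted p under 0.05 and black bars are list medians. The brown and beige list has its median at -0.42 and the cell cycle list at 0.36, while macrophage markers centre on -0.02.

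**Figure D4:**
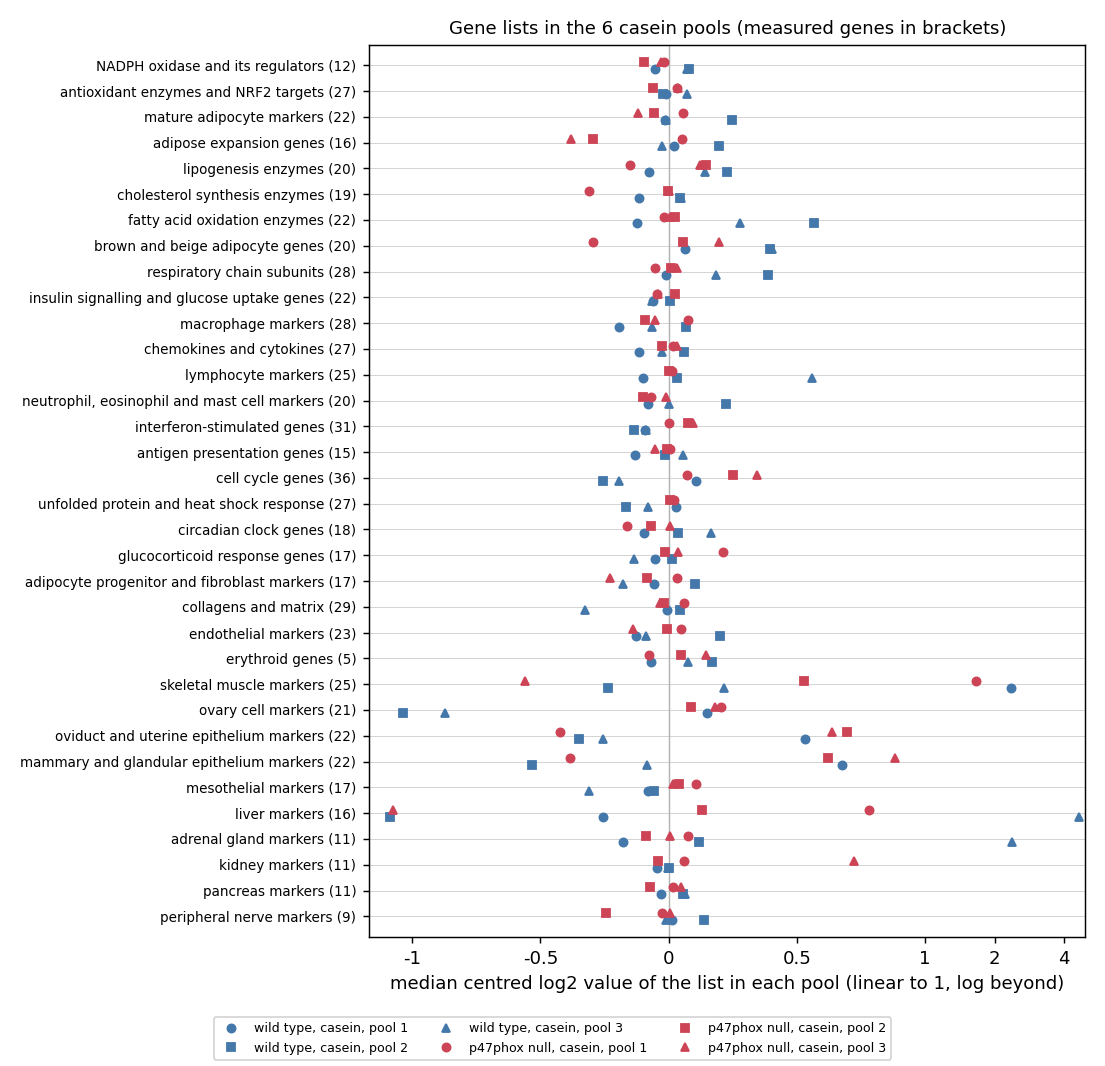
Median centred log2 value (x axis, linear to 1 and logarithmic beyond) of each of the 34 lists in the 6 casein pools, coloured by genotype and shaped by pool number. Wild type pool 1 lies with the null pools for ovary cell markers (0.15) and with the other wild type pools for interferon-stimulated genes (-0.09). Wild type pool 3 stands alone for liver (4.65) and adrenal gland (2.38) markers.

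Ovary genes themselves were at the far end of the comparison. Inha, the inhibin alpha subunit of granulosa cells, read 0.73, -5.68 and -5.04 in wild type pools and -0.15, 0.72 and 0.69 in null pools (3.75 ± 1.32). Foxl2, a granulosa cell transcription factor, read 0.16, -1.11 and -1.07 against -0.02, 0.09 and 0.27, and Gdf9, the oocyte growth factor, 0.19, -1.09 and -1.33 against 0.32, -0.05 and 0.16. In all 3 genes wild type pool 1 overlapped the null pools. Of 21 ovary markers 4 had an unadjusted p under 0.05, all higher (3.62% of all genes). The count was 13 without wild type pool 1 (6.78% of all genes), 1 without wild type pool 2 (2.73%) and 2 without null pool 3 (2.85%). Mesothelial markers had list medians of -0.08, -0.06 and -0.31 in wild type pools and 0.11, 0.04 and 0.02 in null pools, with 0 of 17 members at an unadjusted p under 0.05, 3 without wild type pool 1 and 2 without wild type pool 3. Those 3 and 2 were higher, as were 6.78% and 2.42% of all genes in those fits.

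Genes that glucocorticoids and stress regulate differed in both directions. Fkbp5, a cochaperone of the glucocorticoid receptor, read -0.05, -0.79 and -0.43 in wild type pools and 0.37, 0.02 and 0.21 in null pools (0.62 ± 0.18). Sgk1, a kinase induced by the hormone, read -0.11, -0.60 and -0.67 against 0.41, 0.03 and 0.40 (0.74 ± 0.28), and the metallothionein Mt1 was higher by 0.41 ± 0.13. Dusp1, a phosphatase of MAP kinases, read 0.46, 0.88 and 0.16 against -0.12, -0.22 and -0.44 (-0.76 ± 0.18). None of these 4 overlapped. Of 17 measured genes 4 were higher (3.62% of all genes) and 1 lower (4.5%) at an unadjusted p under 0.05, with a median of 0.04, and the count higher was 2 without wild type pool 2 or 3 or null pool 1. Fitted with the ovary marker median as a covariate, 0 were higher and 2 lower, with a median of 0.17, while Fkbp5 differed by 0.22, Sgk1 by 0.32, Mt1 by 0.30 and Dusp1 by -0.73. Among 18 clock genes Npas2 (0.49 ± 0.11) was higher and Bhlhe40 (-0.84 ± 0.30) lower, and without wild type pool 1 the clock genes lower at that threshold were 5 (8.68% of all genes).

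Antioxidant enzymes, the other side of superoxide metabolism, had a median difference of -0.01 over 27 measured genes. Sod2, the mitochondrial superoxide dismutase, read -0.01, 0.47 and 0.13 in wild type pools and -0.22, -0.12 and -0.07 in null pools (-0.33 ± 0.12). Keap1, which holds the antioxidant factor NRF2 in check, differed by -0.22 ± 0.08 and the thioredoxin reductase Txnrd1 by -0.21 ± 0.09. These 3 were lower in all null pools, and 0 of the 27 were higher at an unadjusted p under 0.05. Over all genes 4.5% were lower and 3.62% higher at that threshold. The count lower was 5 without wild type pool 1, where 8.68% of all genes were, and 1 without null pool 2, and 2 were higher without wild type pool 1 or null pool 3. Prdx4, a peroxiredoxin of the endoplasmic reticulum, was higher in all null pools (0.34 ± 0.16). Nnt, the mitochondrial transhydrogenase known to be mutated in the C57BL/6J substrain, read 0.09, -0.56 and 0.15 in wild type pools and -0.04, 0.05 and 0.00 in null pools (0.11 ± 0.19), and the genotypes overlapped.

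Matrix genes beside Timp1 and Mmp11 gave a few separated members. Tnc, the matrix glycoprotein tenascin C, read 0.15, -0.52 and -0.59 in wild type pools and 0.97, 0.52 and 0.87 in null pools (1.11 ± 0.33). Every null pool was above every wild type pool, and with the ovary marker median as a covariate the difference was 0.38. Bgn, the proteoglycan biglycan, was higher (0.32 ± 0.09) and Col15a1, a collagen of basement membranes, lower (-0.42 ± 0.12). Of 29 collagens and matrix genes 3 were higher (3.62% of all genes) and 1 lower (4.5%) at an unadjusted p under 0.05, with a median of 0.10. Of 23 endothelial markers 0 were higher or lower at it, with a median of -0.01. Without wild type pool 1 the matrix genes higher at that threshold were 5, where 6.78% of all genes were. S100b, a calcium-binding protein of Schwann cells and adipocytes, read 0.99, 1.09 and 0.67 against -0.34, -0.44 and -0.08 (-1.21 ± 0.31), and Pmp22, a protein of myelin, was lower by 0.37 ± 0.11 on the log2 scale.

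The same genotype contrast on the high fat diet compares 6 other arrays, with the spread estimated from all 12, and passed the test for 1077 genes (5.92%), 456 without null casein pool 2 and 0 with the ovary marker median as a covariate. On that diet the ovary marker median was -1.04, -0.96 and -0.75 in wild type pools and 0.08, 0.71 and 0.81 in null pools. It tracked genotype, so the count of 0 cannot tell tissue from genotype. Of the 659 genes higher on casein at an unadjusted p under 0.05, 579 (87.9%) had the same direction on the high fat diet. Of the same 659, 391 (59.3%) had that direction with an unadjusted p under 0.05 there. Of the 819 lower genes, 747 (91.2%) and 396 (48.4%) did. Over all genes 68.0% had the same direction, and 21.2% had it with an unadjusted p under 0.05 on the high fat diet (24.9% in either direction). Each gene's spread is estimated once from all 12 arrays, so genes chosen by p on casein are favoured to have a small p on the high fat diet. The differences on the 2 diets had a Pearson correlation of 0.61 across 18194 genes. Those 18194 are not independent and share the tissue markers described above. Opposite directions at an unadjusted p under 0.05 on both diets were found in 13 of the 659 and 6 of the 819 genes.

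The genes called on the high fat diet are followed here on casein. They were chosen for their high fat diet values, so nothing is read from a smaller median on casein. For the 584 higher there (3.21%), the median difference was 0.76 there and 0.30 on casein, and 559 had the same direction. For the 493 lower there (2.71%), the median size was 0.55 and 0.20, and 452 had the same direction. The 659 genes higher on casein, chosen there, had a median difference of 0.35 there and 0.32 on high fat. For the 819 lower genes the median sizes were 0.30 and 0.23. The interaction test called 0 of 18194 genes (0.0%) with limma, with 1113 (6.12%) at an unadjusted p under 0.05. It called 10 without wild type casein pool 2 and 1 without wild type casein pool 3. No gene is therefore described as particular to casein.

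Some leading casein genes had little difference on the other diet. Fgf15 differed by 0.41 on casein but -0.01 on the high fat diet, and Lgals3bp by 0.61 and 0.11. Elovl3 differed by -2.13 and -0.30, and Ppp1r3b by -1.18 and 0.04. For Fgf15 the interaction was 0.42 ± 0.10 and for Irak1bp1 0.45 ± 0.12, neither past the test (limma adjusted p = 0.789 for each). Of the 20 genes of smallest p, 19 had the same direction on both diets, as did 68.0% of all genes. On the high fat diet 15 passed the test, as did 5.92% of all genes. The 20 were chosen partly by a spread that the tests on both diets share.

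**Figure D5:**
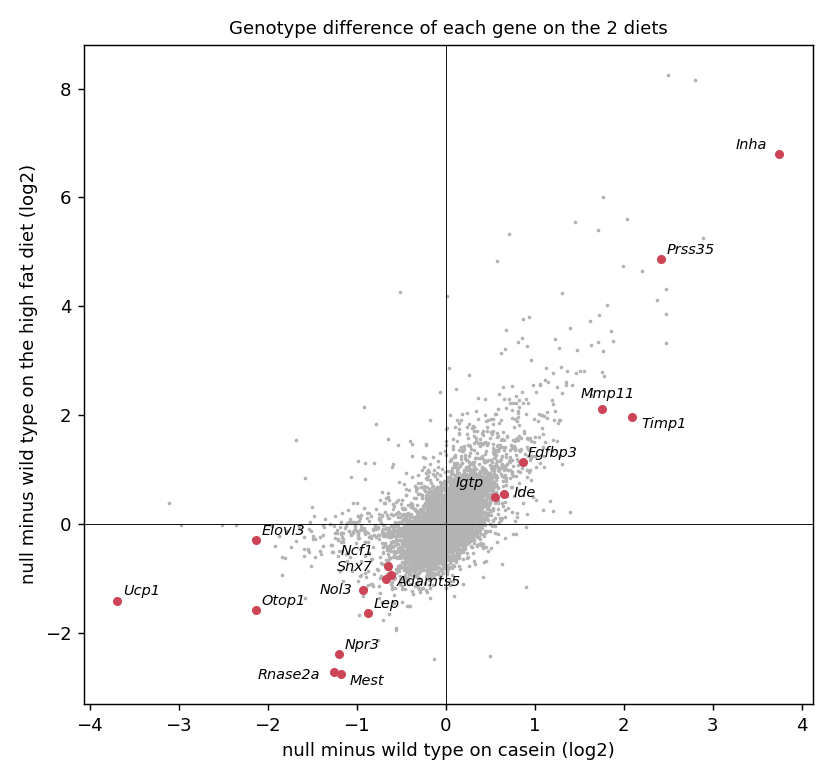
Genotype difference of each of 18194 genes on casein (x axis) and on high fat (y axis), both in log2, with the means of the 2 diets from different arrays. Red points are genes described in the text. Points run along a rising band (r = 0.61), with Inha and Prss35 at its upper end, Mest, Npr3 and Rnase2a below, and Ucp1 and Elovl3 farther out on casein than on the high fat diet.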

How the data were processed

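Total RNA from pooled abdominal fat pads was measured on 12 one-colour Affymetrix arrays, 3 pools in each of 4 groups, with 8 µg of RNA per array, per the labels' protocols. The extraction text of those protocols speaks of rats, while every sample is labelled as mouse. The submitters' processing notes name GCOS and RMA, with no version, order or setting. The values the authors deposited are RMA values in log2 units, the base being taken as 2, and the authors centred each probe set on its median over the 12 arrays: 0 of 45101 probe sets departed from a median of 0 by more than 1e-06. Expression levels and the signal above background cannot be read, and the number of arrays limits the precision. No 2 arrays hold the same values.

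Of the probe sets, 34958 carry 1 gene symbol, 932 several and 9211 none, and only the first kind was used. Symbols were updated through RefSeq (GRCm38.p6) for 34754 of them. The result is 18194 genes, 9012 with more than 1 probe set, each the mean of its probe sets. limma 3.58.1 in R 4.3.3 fitted the 4 group means to all 12 arrays (8 residual and 2.5 prior degrees of freedom), with two-sided p-values given a Benjamini-Hochberg adjustment over all genes and a threshold of 0.05. The fit was tested on simulated data.

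The members, the 34 gene lists and the rule for the genes named were chosen with earlier results of these data known. The rule names 12 followed genes, the measured NADPH oxidase genes, the 10 higher and 10 lower genes of smallest p and of widest difference among genes whose casein pools do not overlap, and up to 4 members of a list by p, without predicted genes. Neighbours are the 10 measured genes on each side in gene order. Alternatives left out each casein pool, changed the probe set rule, normalization, filter, weights and covariates, or added the replicate number as a block. Same-numbered casein pools did not deviate together (correlations of -0.26, -0.18 and -0.12), so the numbers were not taken as pairs. Across diets, same-numbered null pools 1 to 3 had correlations of 0.55, -0.01 and 0.59, and wild type pools -0.11, -0.14 and 0.30. Between genotypes on the high fat diet they were -0.50, -0.61 and 0.09. What the pool numbers stand for was not tested.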

Additional observations from a re-analysis of the deposited data

Results flagged for a closer look

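Gbp2, the guanylate-binding protein, separated the genotypes in opposite directions on the 2 diets. On casein the null pools were all above the wild type pools, by 0.30, and on the high fat diet they were all below, at -0.27, with 0.17, 0.10 and 0.35 in wild type pools and -0.08, -0.09 and -0.02 in null pools. The interaction was 0.57 ± 0.13 and did not pass the limma test (adjusted p = 0.789).

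Gzma, the granzyme of cytotoxic lymphocytes, did the same. On casein it read -0.10, -0.12 and 0.01 in wild type pools, against 0.05, 0.35 and 0.26 in null pools, a difference of 0.29, against -0.43 on the high fat diet. Its interaction was 0.72 ± 0.19 (limma adjusted p = 0.789). Only genes named in the text were searched for such a pattern.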

How the results depend on the processing

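The casein count of 0 genes stayed at 0 with the replicate number as a block, with only the 6 casein arrays, with each probe set on its own or the one of largest variance, with array medians set to 0, without genes of small span, with array weights, with robust eBayes and with tissue marker medians as covariates. It was 1 after quantile normalization (Fgfbp3), 0 to 46 when 1 pool was left out and 45 without wild type casein pools 1 and 3. That last setting and the ovary median as the sole covariate were chosen after seeing the data. The replicate block left 1444 casein genes at an unadjusted p under 0.05, against 1478, so no casein call changed. The high fat diet count of 1077 was 542 with the replicate block, 1634 over single probe sets, 523 after quantile normalization, 5120 with array weights, whose estimation stopped before converging, 0 with either set of covariates, and 456 to 1454 when 1 casein pool was left out; leaving out high fat diet pools was not run. The interaction count of 0 ran from 0 to 10 when 1 casein pool was left out. The cause of these shifts was not tested. Of 110 named genes, the following small differences turned sign. With the ovary median as covariate Fasn was 0.0988, Ccl2 -0.0151, Nnt -0.112, Cyba -0.305, Noxo1 -0.109, Duox1 0.231, Duoxa2 0.0760, Cybc1 0.0168 and Slc2a4 0.0127. With muscle, liver and ovary medians Fasn was 0.0702, Nnt -0.0978, Cyba -0.277, Noxo1 -0.121, Duox1 0.226, Duoxa2 0.0731, Cybc1 0.0224 and Slc2a4 0.00920. Array weights gave 0.0247 for Fasn and -0.0674 for Noxo1. Without wild type casein pools 1 and 3 Adipoq was -0.0878, Ccl2 -0.0883 and Adgre1 -0.0696. Leaving out 1 pool gave -0.0914 to 0.15 for Adipoq, -0.19 to 0.13 for Fasn, -0.0992 to 0.29 for Ccl2, -0.39 to 0.11 for Ncf4, -0.12 to 0.24 for Nnt, -0.10 to 0.19 for Cyba, -0.0782 to 0.27 for Noxo1 and -0.32 to 0.0227 for Duox1. The other named genes kept their direction in every alternative run, and 13 of them passed the test in at least 1. With centred values, signal over background is unknown.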

Other observations

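Epithelial marker lists varied between the pools of each genotype. Oviduct and uterine epithelium markers had medians of 0.53, -0.35 and -0.25 in wild type casein pools 1 to 3 and -0.42, 0.70 and 0.64 in null casein pools 1 to 3. Mammary and glandular epithelium markers ran the same way, at 0.67, -0.53 and -0.09 against -0.38, 0.62 and 0.88. Cldn4, a claudin of tight junctions, read 0.05, -0.16 and -0.08 in wild type pools and -0.13, 0.89 and 0.71 in null pools (0.55 ± 0.23), and Hoxa11, a homeobox factor of the uterus, 0.04, -0.08 and -0.38 against -0.11, 0.76 and 0.43 (0.50 ± 0.22). Null pool 1 lay apart from null pools 2 and 3 in both lists.

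Liver and adrenal marker lists set wild type pool 3 apart, and Cpn2 followed the liver list only in part. Cpn2, a subunit of the plasma carboxypeptidase N made in liver, read 0.06, 1.55 and 2.75 in wild type pools and -0.06, -0.20 and -0.02 in null pools. Its difference of -1.54 was -0.89 without wild type pool 3 and -2.24 without wild type pool 1. Wild type pool 2, with Cpn2 at 1.55, had the lowest liver marker median of the 6 casein pools (-1.24). Mc2r, the receptor of adrenocorticotropic hormone, read 0.00, 0.32 and 1.37 against 0.00, -0.54 and -0.56 (-0.93 ± 0.36, and -0.53 without wild type pool 3). Kidney markers had a median of 0.72 in null pool 3 and between -0.05 and 0.06 in the other casein pools. Pancreas markers stayed between -0.07 and 0.06 in all 6.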
